A study of Homo sapiens with 15 samples.

Results

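The genes described here are 38 components and regulators of the actin cytoskeleton, chosen by symbol, in HCT116 cells treated with hydroxytyrosol or olive extracts. The choice took in the genes that build, bind and anchor actin filaments together with serum response factor (SRF) and its coactivators, and required 1 TPM or more in 3 or more of the 15 libraries. TPM is transcript abundance corrected for transcript length and expressed relative to all transcripts of a library, which makes levels of different genes comparable within it. All 38 were found among the 60664 gene rows, all 38 reached 1 TPM in every library, and all 38 were among the 14899 genes tested.

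HCT116 cells are an epithelial line from a human colorectal carcinoma, given as genotype WT in the labels. They were exposed for 72 h to extracts of olive oil production waste products (OPWPs), named AE for Apulia, TE for Tuscany and SE for Sicily, or to hydroxytyrosol (HTyr), a phenolic compound of olives, each at 0.0154 mg/mL, or were left untreated. The extracts were dissolved in water, and no vehicle is named for the untreated cells. Each of the 5 groups has 3 libraries of poly(A) RNA, labelled as biological replicates, of a single cell line. The labels conflict on TE and SE: bracketed codes in the sample titles give the letter S to Tuscany and T to Sicily, whereas the sample descriptions and the study's own table give T to TE and S to SE. The descriptions were followed, and if the codes are right, TE and SE change places throughout.

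Actin monomers assemble into filaments, which non-muscle myosin pulls on, tropomyosins coat, alpha-actinins and filamins crosslink, and vinculin, talin and zyxin tie to adhesion sites. The pool of free actin also sets transcription. Actin monomers hold the coactivators MRTFA and MRTFB back, and when monomers are used up in filaments the coactivators enter the nucleus and act with SRF at promoters that carry a CArG box. Many genes of the cytoskeleton, the actin genes and SRF itself included, are known SRF targets. In intestinal epithelium the same filaments support cell junctions, adhesion and the apical surface, where ezrin links them to the membrane.

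Promoter sequence from RefSeq (GRCh38.p14), taken from 250 bases before to 50 bases after each annotated start, was available for 35 of the 38 members. ACTB, MYL9 and TAGLN had no window. A CArG box, the site that SRF binds, is 10 bases long, with 2 C at one end, 2 G at the other and 6 bases between that are each A or T, and its pattern is its own reverse complement, so 1 search covers both strands. Overlap with other motifs was not examined. A perfect box was found in 7 of 35 members (20%). By gene, it was found in 155 of 10543 that were tested and had a window (1.47%), in 438 of 27305 with a window (1.6%) and in 8 of 59 of the other actin network genes described later (13.6%). By window, it was found in 9 of 64 windows of members (14.1%), against 454 of 35116 windows of this length in all (1.29%). The members with a box were ACTG1, FHL2, FLNA, SRF, CNN2, TPM4 and ACTN1, and genes differ in their number of windows. Known SRF targets were on the lists by choice, so the shares are a description. The share by gene was 6 of 13 (46.2%) among the members with a window whose transcripts were lower with all 4 treatments and 1 of 22 (4.55%) among the other members with a window. ACTB, MYL9 and TAGLN, also lower with all 4 treatments, are in neither share. This split was made by the results of these same data, so it too is a description. A match marks only these letters, not a bound site.

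The windows of ACTG1, FHL2, FLNA and SRF are printed because these 4, of the members with a box, had the largest falls in transcript level, with the CArG box in capitals and the strand of the gene read 5′ to 3′. The box began 94 bases before the start in ACTG1, 59 in the FHL2 window shown and 94 in FLNA. SRF carried 2 boxes, 30 and 10 bases before its start.
ACTG1 promoter, chr17:81512750-81513049, minus strand: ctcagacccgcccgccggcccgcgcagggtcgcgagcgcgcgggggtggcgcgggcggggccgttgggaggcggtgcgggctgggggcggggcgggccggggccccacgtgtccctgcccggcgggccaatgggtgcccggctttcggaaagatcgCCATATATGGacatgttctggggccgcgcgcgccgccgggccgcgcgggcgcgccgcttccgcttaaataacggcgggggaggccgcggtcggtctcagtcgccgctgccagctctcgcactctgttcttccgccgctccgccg
FHL2 promoter, chr2:105399002-105399301, minus strand: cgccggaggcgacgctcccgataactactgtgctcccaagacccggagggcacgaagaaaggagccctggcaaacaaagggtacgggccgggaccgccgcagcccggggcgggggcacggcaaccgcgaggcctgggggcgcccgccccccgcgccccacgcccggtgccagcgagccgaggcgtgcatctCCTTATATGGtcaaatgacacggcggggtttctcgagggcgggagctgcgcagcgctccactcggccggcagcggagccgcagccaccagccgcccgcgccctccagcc
FLNA promoter, chrX:154374585-154374884, minus strand: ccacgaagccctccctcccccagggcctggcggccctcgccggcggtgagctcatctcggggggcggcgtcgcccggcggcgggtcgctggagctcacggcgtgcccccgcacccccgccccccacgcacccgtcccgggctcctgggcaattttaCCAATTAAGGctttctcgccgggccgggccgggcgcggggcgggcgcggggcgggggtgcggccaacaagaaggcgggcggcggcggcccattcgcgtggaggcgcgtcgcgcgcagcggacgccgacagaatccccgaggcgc
SRF promoter, chr6:43171019-43171318, plus strand: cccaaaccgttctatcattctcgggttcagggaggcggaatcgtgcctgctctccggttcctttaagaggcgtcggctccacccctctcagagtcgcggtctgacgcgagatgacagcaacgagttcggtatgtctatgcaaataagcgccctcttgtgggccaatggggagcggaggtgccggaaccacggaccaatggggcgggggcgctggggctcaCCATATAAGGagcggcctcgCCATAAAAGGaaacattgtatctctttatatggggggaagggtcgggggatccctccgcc

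All 6 epithelial markers examined (EPCAM, CDH1, KRT8, KRT18, KRT19 and CLDN4) were tested, and they summed to 2397 to 3271 TPM in treated libraries and 4400 to 4513 TPM in untreated ones, and KRT18, KRT19 and CLDN4 of the 6 were lower averaged over the treatments. VIL1, the microvillus protein villin, did not exceed 0.23 TPM. Of 19 markers of smooth muscle, fibroblasts, leukocytes and endothelium, 15 never reached 1 TPM, and COL1A2 and CDH5 were listed at 0 in every library. Smooth muscle markers summed to 5.84 to 13.0 TPM in treated libraries and 7.27 to 9.54 TPM in untreated ones, fibroblast markers to 4.47 to 9.02 TPM in treated and 6.34 to 8.01 TPM in untreated ones, and endothelial markers to 0.04 to 0.21 TPM in treated and 0.06 to 0.22 TPM in untreated ones. Leukocyte markers summed to 1.58 to 6.88 TPM in treated libraries and 16.5 to 17.3 TPM in untreated ones, and CD68, the only one of 4 past the filter on low values, was lower with all 4 treatments. Mitochondrially encoded genes held 17.0% to 21.5% of TPM in treated libraries and 15.6% to 18.7% in untreated ones. The part of these differences in the results was not tested. Because TPM are shares of a whole library, and the RNA comes from many cells, fewer cells expressing a gene and less of its RNA per cell cannot be told apart, and the depth of each library is unknown.

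Of the 38 members, 16 (AE), 16 (TE), 17 (SE) and 18 (HTyr) were lower than in untreated cells, and none was higher except TPM3 and CFL1 with SE. A call required a limma p, Benjamini-Hochberg adjusted over all 14899 genes tested, under 0.05 and a change of over 1.5-fold. Among all genes tested, 5.81% (AE), 5.26% (TE), 11% (SE) and 8.45% (HTyr) were lower. Higher were 10.7% (AE), 7.46% (TE), 17% (SE) and 7.8% (HTyr), which makes 16.6% (AE), 12.7% (TE), 28% (SE) and 16.2% (HTyr) called in either direction. As a median, the log2 fold change was -0.31 over the members and 0.09 over all genes with AE, -0.36 and 0.05 with TE, -0.45 and 0.09 with SE, and -0.47 and -0.04 with HTyr. In the mean of the 4 treatments against untreated cells, 17 members were lower and 0 higher (7.43% of all genes lower, 10.4% higher, 17.9% either). All 5 comparisons share the 3 untreated libraries. With no fold threshold, an adjusted p under 0.05 was met by 28 members (AE), 24 (TE), 31 (SE), 26 (HTyr) and 31 in the mean, beside 39.8%, 34%, 52%, 39.4% and 49.9% of all genes in that order. These numbers cover both directions. Of the members so counted, 5 (AE), 3 (TE), 10 (SE), 4 (HTyr) and 7 in the mean were higher. Lower were 23 (AE), 21 (TE), 21 (SE), 22 (HTyr) and 24 in the mean. With a threshold of 1 on the log2 scale the members numbered 6 (AE), 8 (TE), 10 (SE), 5 (HTyr) and 10 in the mean, beside 4.8%, 2.97%, 10.9%, 3.95% and 4.68% of all genes.

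The same 16 members, ACTB, ACTG1, MYH9, MYL9, MYL12A, TPM4, TAGLN, CNN2, LIMA1, ACTN4, FLNA, VCL, ZYX, FHL2, EZR and SRF, were lower with each of the 4 treatments, against 3.19% of all genes tested (4.66% were higher with all 4, and 0 members). Every treated library lay below every untreated one in 21 of the 38 members, beside 11.8% of all genes tested. Every treated library lay above in 3 members, beside 15.3% of all genes. All 16 are among the 21, which their calls with all 4 treatments made likely. The log2 fold changes of the 16 had standard errors of 0.04 to 0.18 and adjusted p-values of 2.93e-11 to 0.00284. No treatment gave the largest fall throughout: it was with SE for 8 of the 16, with AE for 3, with HTyr for 3 and with TE for 2. Another 5 members were called with 1 treatment, and 17 with none.

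**Figure D1:**
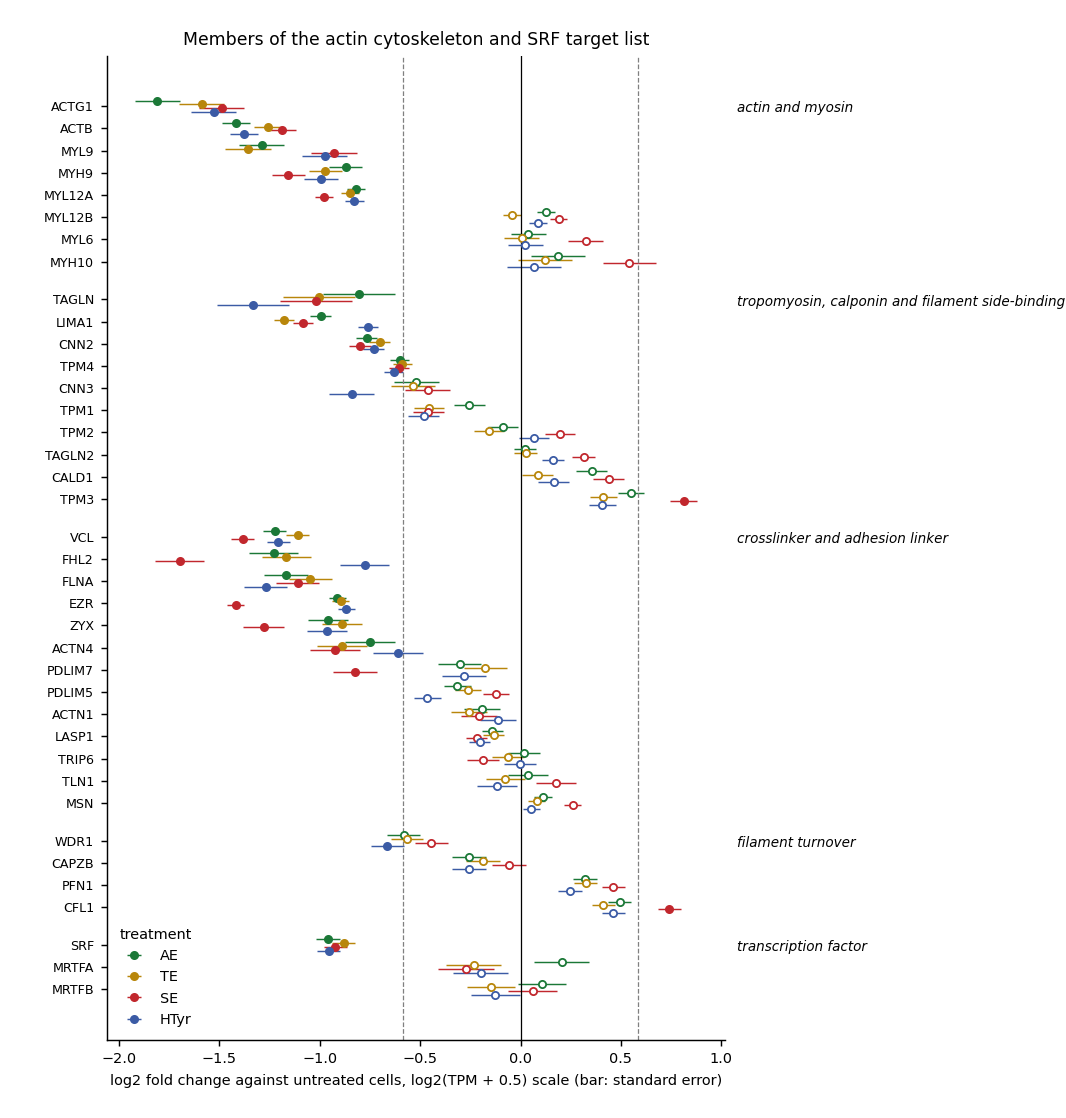
Log2 fold change of each of the 38 members (rows, by role) against untreated cells, with a point for each treatment, its standard error as a bar, filled points for calls and dashed lines at 1.5-fold. In 16 members all 4 points are filled and left of the lower line (3.19% of all genes tested were lower with all 4). These members occur in every role but filament turnover.

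Another scaling of the libraries moved the split of calls over all genes. The counts over all genes tested were 1601 higher and 865 lower (AE), 1112 higher and 784 lower (TE), 2532 higher and 1636 lower (SE) and 1162 higher and 1259 lower (HTyr). With median-ratio scaling they were 1200 higher and 1160 lower (AE), 970 higher and 923 lower (TE), 2000 higher and 2054 lower (SE) and 1284 higher and 1140 lower (HTyr). Of the members, 18 were then lower with AE and 17 with each of TE, SE and HTyr, and TPM3 and CFL1 were again higher with SE.

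The cytoplasmic actins, from which filaments are made, had the largest falls of the 38 members when the 4 treatments were averaged. ACTG1 (chr17:81509413-81523847, GRCh38, GENCODE 44 annotation), which encodes gamma-actin and carries the first promoter printed above, had 1364, 1486 and 1683 TPM with AE, 1866, 1598 and 1812 TPM with TE, 1703, 1941 and 2011 TPM with SE and 1690.2, 2002 and 1807 TPM with HTyr, against 6121, 4513 and 5307 TPM in untreated cells. The lowest untreated library lay above all 12 treated ones by a wide margin. Its log2 fold change was -1.81 (AE), -1.59 (TE), -1.49 (SE) and -1.53 (HTyr), and averaged over the treatments -1.60 (SE 0.09, adjusted p = 9.62e-09). ACTB (chr7:5526409-5563902), the beta-actin gene, had 698, 669.7 and 772 TPM with AE, 817, 778 and 793 TPM with TE, 857, 792 and 858 TPM with SE and 687, 800.0 and 719 TPM with HTyr, against 2035, 1798 and 1888 TPM in untreated cells. All 12 treated libraries stood well below the untreated ones, with log2 fold changes of -1.42 (AE), -1.26 (TE), -1.19 (SE) and -1.38 (HTyr) and a mean of -1.31 (SE 0.05, adjusted p = 1.02e-09). Both genes encode nearly identical proteins, and RSEM divides shared reads between genes by estimation. How far their transcripts share reads was not examined, so the split between them is uncertain. Of all TPM, ACTB and ACTG1 together held 0.222 ± 0.021% (AE), 0.255 ± 0.016% (TE), 0.272 ± 0.015% (SE) and 0.257 ± 0.022% (HTyr), against 0.722 ± 0.092% in untreated cells (SD, n = 3 each). Of that sum, ACTG1 made up 67.9% (AE), 68.8% (TE), 69.2% (SE) and 71.4% (HTyr), against 73.4% in untreated cells.

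**Figure D2:**
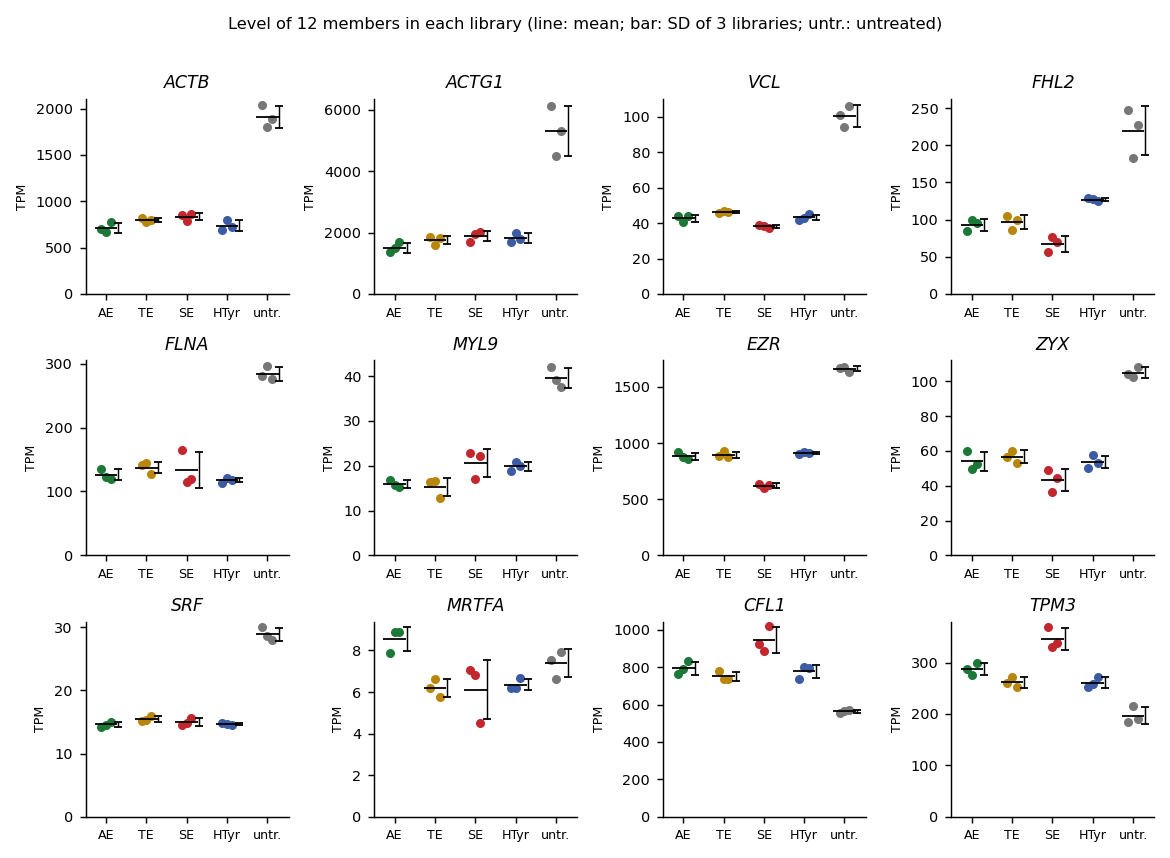
TPM of 12 members (linear axes from 0) in each of the 15 libraries, with a point per library, a line for the mean and a bar for the SD of the 3 libraries, for AE, TE, SE, HTyr and untreated cells. In 9 panels, ACTB to SRF, all 12 treated libraries lie below the 3 untreated ones, as in 11.8% of all genes tested. These 9 were taken from the 16 members lower with all 4 treatments. In MRTFA the groups overlap, and in CFL1 and TPM3 the treated libraries lie above, as in 15.3% of all genes tested.

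Non-muscle myosin consists of heavy chains that hydrolyse ATP, regulatory light chains that switch them on, and essential light chains. MYH9, the heavy chain of non-muscle myosin IIA, had 95.7, 88.0 and 103 TPM with AE, 86.7, 90.4 and 89.3 TPM with TE, 84.4, 72.1 and 78.1 TPM with SE and 77.1, 92.1 and 94.2 TPM with HTyr, against 167, 174 and 183 TPM in untreated cells. It was lowest on average with SE, and no treated library reached the untreated ones. The log2 fold change of MYH9 was -0.87 (AE), -0.97 (TE), -1.16 (SE) and -0.99 (HTyr). The heavy chain of non-muscle myosin IIB, MYH10, was not called with any treatment and had log2 fold changes of 0.07 to 0.54, the highest with SE. Without untreated replicate 2 (0.61) or 3 (0.59) the SE value of MYH10 was called higher. The essential light chain gene MYL6 was not called either (0.01 to 0.32).

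Of the 3 regulatory light chain genes, MYL9 and MYL12A fell and MYL12B was called with no treatment. MYL9 (chr20:36541497-36551447), the least abundant of them, had 16.9, 15.6 and 15.2 TPM with AE, 16.3, 16.6 and 12.8 TPM with TE, 22.9, 17.1 and 22.1 TPM with SE and 18.9, 20.9 and 19.9 TPM with HTyr, against 42.1, 39.2 and 37.6 TPM in untreated cells. Its libraries with SE were the highest of the treated ones on average, yet all stayed under the untreated range. The log2 fold change of MYL9 was -1.29 (AE), -1.36 (TE), -0.93 (SE) and -0.98 (HTyr). MYL12A (chr18:3247481-3256236) had 433, 427 and 413 TPM with AE, 400.4, 432 and 416 TPM with TE, 385, 389 and 368 TPM with SE and 418, 431 and 419 TPM with HTyr, against 779, 751 and 720.2 TPM in untreated cells. SE was the lowest group and untreated cells stood apart from all others. The mean fall of MYL12A was -0.87 (SE 0.04, adjusted p = 1.01e-09). Its neighbour MYL12B (chr18:3261479-3278461) had 528 ± 7.34 TPM with AE, 470.4 ± 8.72 TPM with TE, 552 ± 19.2 TPM with SE and 514 ± 17.5 TPM with HTyr, against 484 ± 17.6 TPM in untreated cells (SD, n = 3 each), with log2 fold changes of -0.04 to 0.19. MYL12A and MYL12B encode nearly identical proteins. How far their transcripts share reads was not examined, so the division of reads between them is uncertain as well. Of the summed TPM of the 3 genes, MYL12B made up 54.5% (AE), 52.2% (TE), 57.9% (SE) and 53.7% (HTyr), against 38.015% in untreated cells. MYL12A made up 43.8% (AE), 46.1% (TE), 39.9% (SE) and 44.2% (HTyr), against 58.9% in untreated cells. The sum itself was 969 ± 6.03 TPM (AE), 902 ± 21.6 TPM (TE), 954 ± 9.65 TPM (SE) and 956 ± 17.7 TPM (HTyr), against 1274 ± 37.2 TPM in untreated cells.

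Among genes whose products lie along the filament, 4 of 10 fell with all 4 treatments, beside 3.19% of all genes tested. Tropomyosins form coiled coils in the filament groove and govern the access of myosin and of severing proteins. TPM4 had 174, 159 and 164 TPM with AE, 169.5, 169.9 and 162 TPM with TE, 167, 166 and 163 TPM with SE and 167, 155 and 164 TPM with HTyr, against 255, 258 and 242 TPM in untreated cells. It was close to the fold threshold, with log2 fold changes of -0.60 (AE), -0.59 (TE), -0.61 (SE) and -0.63 (HTyr). Without the mitochondrially encoded genes in the total, TPM4 stood at -0.58 with AE, -0.55 with TE and -0.58 with SE and was no longer called in these. The AE call of TPM4 was also lost without AE replicate 2 (-0.58) or untreated replicate 2 (-0.58), and the TE call without TE replicate 3 (-0.57), untreated replicate 1 (-0.58) or untreated replicate 2 (-0.57). TPM3 differed in the other direction. It had 288, 276 and 299.7 TPM with AE, 261, 273 and 252 TPM with TE, 369.8, 329 and 337 TPM with SE and 252, 258 and 272 TPM with HTyr, against 185, 216 and 190.1 TPM in untreated cells, with all treated libraries above the untreated ones, as in 15.3% of all genes. TPM3 was called higher with SE (0.81), and its values with AE (0.55), TE (0.41) and HTyr (0.41) did not pass the fold threshold. With quantile normalization the SE value was 0.55 and not called, and without untreated replicate 2 TPM3 was called higher with AE as well (0.62). TPM1 and TPM2 were called with no treatment, at -0.48 to -0.26 and -0.16 to 0.20.

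Of the summed TPM of the 4 tropomyosin genes, TPM4 was 24.9% (AE), 26.7% (TE), 21.8% (SE) and 24.9% (HTyr), against 37.3% in untreated cells. TPM3 was 43.3% (AE), 41.7% (TE), 45.5% (SE) and 39.997% (HTyr), against 29.1% in untreated cells. The sum itself was 665 ± 36.4 TPM (AE), 628 ± 21.0 TPM (TE), 759 ± 18.9 TPM (SE) and 652 ± 22.3 TPM (HTyr), against 675 ± 23.1 TPM in untreated cells (SD, n = 3 each).

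**Figure D3:**
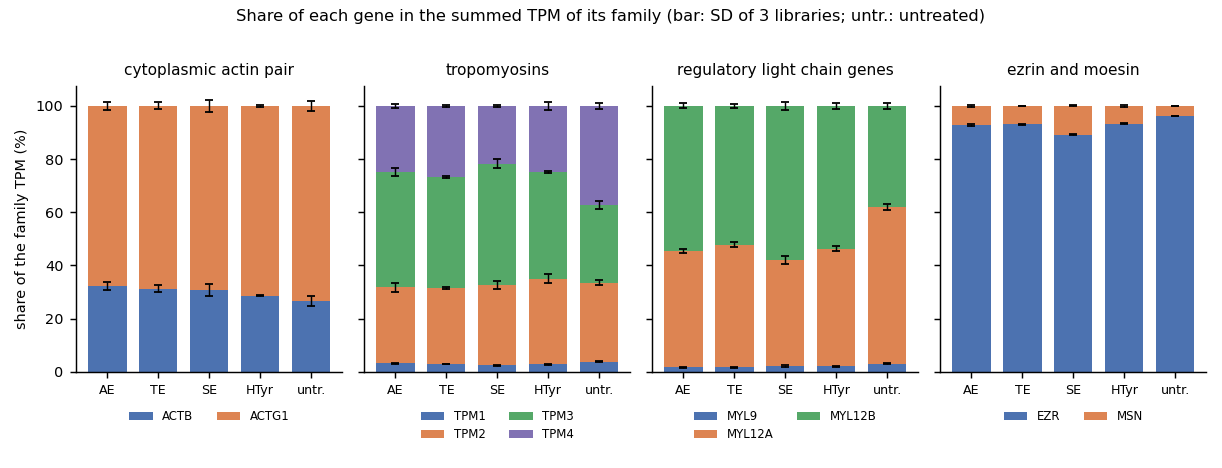
Stacked bars of the mean share (%) of each gene in the summed TPM of its family, for AE, TE, SE, HTyr and untreated cells, with the SD of 3 libraries as error bars. TPM3 takes 39.997% to 45.5% with the treatments and 29.1% in untreated cells, and MYL12B 52.2% to 57.9% with the treatments and 38.015% in untreated cells.

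TAGLN, transgelin, an actin-binding protein that is a classical SRF target in smooth muscle, had 4.14, 4.21 and 5.57 TPM with AE, 3.85, 4.94 and 3.20 TPM with TE, 3.92, 4.11 and 3.69 TPM with SE and 3.38, 2.79 and 2.99 TPM with HTyr, against 6.43, 10.6 and 8.68 TPM in untreated cells. The levels were low for this list and the groups did not overlap with untreated cells, with log2 fold changes of -0.81 (AE), -1.01 (TE), -1.02 (SE) and -1.33 (HTyr). The calponin gene CNN2, with a CArG box 89 bases before its start, had 79.6, 71.5 and 78.5 TPM with AE, 77.1, 82.2 and 80.9 TPM with TE, 76.7, 73.8 and 73.6 TPM with SE and 78.7, 77.2 and 79.1 TPM with HTyr, against 125, 130.3 and 136 TPM in untreated cells. All 12 treated libraries were below the untreated ones. The mean log2 fold change of CNN2 was -0.75 (SE 0.04, adjusted p = 1.04e-08). LIMA1, which encodes the filament-stabilising protein EPLIN, had 67.5, 65.3 and 70.0 TPM with AE, 59.6, 59.9 and 58.9 TPM with TE, 65.3, 61.4 and 64.0 TPM with SE and 84.2, 75.8 and 79.2 TPM with HTyr, against 137, 137 and 132 TPM in untreated cells. The 3 HTyr libraries lay above all extract libraries and below all untreated ones. The log2 fold change of LIMA1 was -0.996 (AE), -1.18 (TE), -1.08 (SE) and -0.76 (HTyr). CNN3 was called lower with HTyr (-0.84) and had -0.52 with AE, -0.54 with TE and -0.46 with SE. Its mean of -0.59 (SE 0.09, adjusted p = 8.31e-05) was just past the threshold. It was -0.50 without untreated replicate 2, and between -0.58 and -0.56 and also not called without AE replicate 2, TE replicate 1 or 3, SE replicate 2 or 3, or HTyr replicate 1. CNN3 was called lower with AE without AE replicate 1 (-0.62) or untreated replicate 3 (-0.59), and with TE without TE replicate 2 (-0.62) or untreated replicate 3 (-0.61). TAGLN2 (0.02 to 0.31) and CALD1 (0.09 to 0.44), which encodes caldesmon, were not called.

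Of the 13 crosslinkers and adhesion linkers, 6 fell with all 4 treatments, beside 3.19% of all genes tested. VCL, vinculin, which joins talin and actin at adhesions, had 43.7, 40.3 and 43.9 TPM with AE, 45.7, 46.8 and 46.1 TPM with TE, 38.6, 38.5 and 37.3 TPM with SE and 41.9, 42.8 and 44.9 TPM with HTyr, against 101, 94.0 and 106 TPM in untreated cells. The SE libraries were the lowest, all treated libraries were below the untreated ones, and the log2 fold change was -1.22 (AE), -1.11 (TE), -1.38 (SE) and -1.21 (HTyr). FLNA (chrX:154348524-154374634), filamin A, crosslinks filaments into networks and had 136, 123 and 119.7 TPM with AE, 141, 144 and 127 TPM with TE, 165, 115 and 119 TPM with SE and 114, 121 and 118 TPM with HTyr, against 281, 296 and 275 TPM in untreated cells. Untreated cells again stood alone, and the mean log2 fold change was -1.15 (SE 0.09, adjusted p = 1.40e-07). ZYX, zyxin, a LIM protein of adhesions and stress fibres, had 59.96, 49.6 and 52.5 TPM with AE, 56.8, 60.2 and 52.8 TPM with TE, 48.8, 36.4 and 44.7 TPM with SE and 50.5, 57.5 and 53.0 TPM with HTyr, against 104.4, 102 and 108 TPM in untreated cells. The SE libraries were the lowest, and its log2 fold change was -0.96 (AE), -0.89 (TE), -1.28 (SE) and -0.96 (HTyr).

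FHL2 (chr2:105357712-105438513), a LIM-domain protein that also acts as a transcriptional cofactor, had the widest spread of log2 fold changes over the 4 treatments among the members. It had 84.2, 99.1 and 95.3 TPM with AE, 105, 86.5 and 100.1 TPM with TE, 56.1, 76.7 and 69.4 TPM with SE and 129, 127 and 125 TPM with HTyr, against 248, 183 and 227 TPM in untreated cells. SE libraries were the lowest and HTyr libraries the highest of the treated ones, all under the untreated range. The log2 fold change of FHL2 was -1.23 (AE), -1.17 (TE), -1.70 (SE) and -0.78 (HTyr). ACTN4, alpha-actinin 4, which bundles filaments, had 287, 315 and 357 TPM with AE, 311, 254 and 307 TPM with TE, 246, 299 and 305 TPM with SE and 318, 381 and 356 TPM with HTyr, against 604, 454 and 561 TPM in untreated cells. Its log2 fold change was -0.75 (AE), -0.89 (TE), -0.93 (SE) and -0.61 (HTyr), and the HTyr value was -0.58 and not called with median-ratio scaling. It was not called either without untreated replicate 1 (-0.53), untreated replicate 3 (-0.58) or HTyr replicate 1 (-0.54). Its paralog ACTN1, with a box 171 bases before its start, was not called (-0.26 to -0.11).

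Ezrin and moesin link filaments to the plasma membrane. EZR had 917, 876 and 858 TPM with AE, 881, 927 and 873 TPM with TE, 639, 602 and 625 TPM with SE and 902, 918 and 909 TPM with HTyr, against 1669, 1678 and 1638 TPM in untreated cells, with the SE libraries apart from the other treated ones and all treated libraries below untreated cells. The log2 fold change of EZR was -0.91 (AE), -0.90 (TE), -1.42 (SE) and -0.87 (HTyr), with standard errors of 0.04. MSN was less abundant and was called with no treatment, with 68.3 ± 0.612 TPM with AE, 66.9 ± 0.766 TPM with TE, 75.7 ± 0.995 TPM with SE and 65.6 ± 2.34 TPM with HTyr, against 63.2 ± 0.625 TPM in untreated cells (SD, n = 3 each). Of the summed TPM of EZR and MSN, MSN made up 7.18% (AE), 6.97% (TE), 10.9% (SE) and 6.73% (HTyr), against 3.66% in untreated cells. PDLIM7, a PDZ and LIM-domain protein of stress fibres, was called lower with SE (-0.82), beside -0.30 with AE, -0.18 with TE and -0.28 with HTyr. TLN1, the talin gene (-0.12 to 0.18), TRIP6 (-0.19 to 0.02), LASP1 (-0.22 to -0.13) and PDLIM5 (-0.46 to -0.12) were not called.

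Of the 4 filament turnover genes, none was lower with more than 1 treatment, where 3.19% of all genes tested were lower with all 4. CFL1, cofilin, which severs filaments, had 762, 793 and 832 TPM with AE, 780.1, 739 and 734 TPM with TE, 926, 885 and 1020.1 TPM with SE and 738, 799 and 797 TPM with HTyr, against 556, 564 and 572 TPM in untreated cells. All treated libraries were above the untreated ones, and CFL1 was called higher with SE (0.74), beside 0.49 with AE, 0.41 with TE and 0.46 with HTyr. With quantile normalization the SE value was 0.49 and not called. WDR1, a cofactor of cofilin in filament disassembly, was called lower with HTyr (-0.66) and stood just short of the threshold with AE (-0.58) and TE (-0.57). It was called with AE without AE replicate 1 (-0.67), untreated replicate 1 (-0.59) or untreated replicate 3 (-0.61), and with TE without TE replicate 2 (-0.63) or untreated replicate 3 (-0.59). PFN1, profilin, which feeds monomers to filament ends, and the capping protein gene CAPZB were not called, at 0.25 to 0.46 and -0.26 to -0.06.

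SRF itself fell. SRF (chr6:43171269-43181506) had 14.2, 14.5 and 15.1 TPM with AE, 15.2, 15.3 and 15.9 TPM with TE, 14.5, 14.9 and 15.6 TPM with SE and 14.8, 14.6 and 14.5 TPM with HTyr, against 30.1, 28.5 and 28.04 TPM in untreated cells. The treated groups were close to one another and all their libraries were below the untreated ones, with log2 fold changes of -0.96 (AE), -0.88 (TE), -0.92 (SE) and -0.96 (HTyr) and a mean of -0.93 (SE 0.05, adjusted p = 3.89e-09). Its coactivators were called with no treatment. MRTFA had 7.89, 8.90 and 8.90 TPM with AE, 6.18, 6.62 and 5.78 TPM with TE, 7.06, 6.80 and 4.49 TPM with SE and 6.19, 6.2 and 6.66 TPM with HTyr, against 7.55, 6.63 and 7.94 TPM in untreated cells. Treated and untreated libraries overlapped, and the log2 fold change was 0.20 (AE), -0.23 (TE), -0.27 (SE) and -0.20 (HTyr). MRTFB had 15.6, 12.8 and 16.6 TPM with AE, 11.6, 13.1 and 12.6 TPM with TE, 14.4, 15.9 and 13.0 TPM with SE and 11.9, 11.9 and 14.1 TPM with HTyr, against 13.5, 16.1 and 12.1 TPM in untreated cells. Treated and untreated libraries overlapped, and the log2 fold change of MRTFB was 0.11 (AE), -0.15 (TE), 0.06 (SE) and -0.13 (HTyr). Nuclear localization of either coactivator was not measured.

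Of all TPM, the 38 members together held 0.887 ± 0.03% (AE), 0.901 ± 0.013% (TE), 0.953 ± 0.019% (SE) and 0.917 ± 0.042% (HTyr), against 1.55 ± 0.09% in untreated cells (SD, n = 3 each). The actin pair is part of this sum.

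Few members were called between the treatments. In SE against HTyr, FHL2 was called lower, at -0.92 (SE 0.12, adjusted p = 0.000116, 95% interval -1.18 to -0.66), and no other member was called. Of all genes, 2.38% were called lower and 7.36% in either direction. The median of all genes in this comparison was 0.13, which median-ratio scaling moved by -0.13 and quantile normalization by -0.11. With median-ratio scaling, PDLIM7 (-0.68) and EZR (-0.69) were called lower too, and the counts over all genes were 323 higher and 561 lower, against 741 higher and 355 lower as reported. At an adjusted p under 0.05 with no fold threshold, 17 of the 38 members differed between SE and HTyr, 10 higher and 7 lower, beside 28.1% of all genes (22% higher and 6.17% lower). The higher ones include MYH10 (0.47), TPM3 (0.40) and CNN3 (0.38), and the lower ones EZR (-0.55), PDLIM7 (-0.54) and LIMA1 (-0.32). PDLIM7 was called lower without SE replicate 1 (-0.61), HTyr replicate 1 (-0.59) or HTyr replicate 3 (-0.61).

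**Figure D4:**
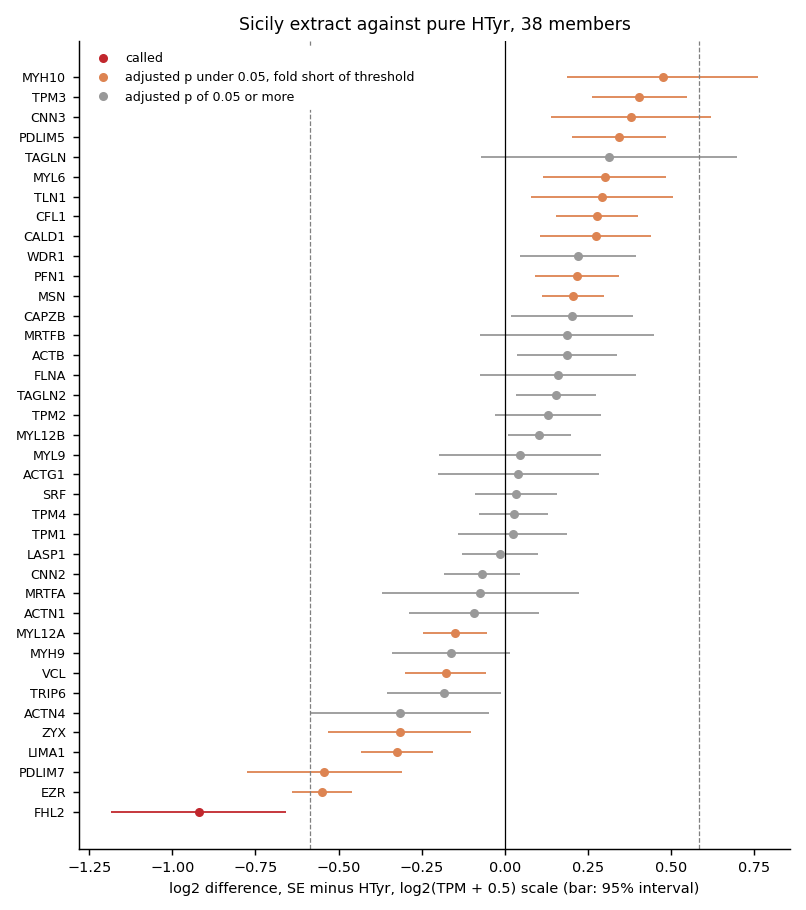
Log2 difference of each member in SE against HTyr cells with its 95% interval, coloured by call, with dashed lines at 1.5-fold. FHL2 lies beyond the lower line at -0.92, and EZR and PDLIM7 lie near it.

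In SE against TE, PDLIM7 was called lower, at -0.65 (SE 0.11, adjusted p = 0.000607), and no other member was. Of all genes, 3.66% were called lower and 8.36% in either direction. At a threshold of 1 on the log2 scale 0 members were called in SE against HTyr (1.28% of all genes) or SE against TE (1.75%). Without TE replicate 2 PDLIM7 was -0.56 and not called, whereas FHL2 was called without SE replicate 2 (-0.63) or TE replicate 2 (-0.61). With median-ratio scaling, FHL2 (-0.59) and EZR (-0.59) were also called, and the counts over all genes were 510 higher and 667 lower, against 700 higher and 546 lower as reported. In SE against AE (4.72% of all genes), AE against HTyr (1.34%), TE against HTyr (0.705%) and AE against TE (0.0873%) no member was called with limma, and the members at an unadjusted p under 0.05 numbered 23 for SE against AE (29.9% of all genes), 11 for AE against HTyr (26.2%), 9 for TE against HTyr (19.6%) and 6 for AE against TE (11.8%). At an adjusted p under 0.05 with no fold threshold they were 15 in SE against AE (17.5% of all genes), 2 in AE against HTyr (9.12%), 1 in TE against HTyr (3.29%) and 0 in AE against TE (0.235%), and 15 in SE against TE (26.4%). LIMA1 was lower with each extract than with HTyr, short of the fold threshold, with -0.24 for AE, -0.42 for TE and -0.32 for SE, all with an adjusted p under 0.05. EZR was likewise lower with SE than with AE (-0.51, 95% interval -0.60 to -0.42) and TE (-0.52, -0.61 to -0.43). The widest 95% interval of a member in these pairs reached 0.39 to either side of its value and the median one 0.17. All members in AE against TE lay between -0.22 and 0.44. Composition of the extracts was not part of these data.

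A further 72 genes of 5 lists around the actin network were examined, of which 67 were tested. Averaged over the treatments, 2 of the 67 rose and 14 fell against untreated cells, with a median log2 fold change of -0.13, where 10.4% and 7.43% of all genes did. EGR3, ACTG2, CNN1, MYH11 and VIL1 stayed below 1 TPM. Of the other MRTF-SRF targets listed, 7 of 12 tested were lower and 0 higher (median -1.07). Not called in that mean were ACTA2 (-0.08), TGFB1I1 (-0.18), PDLIM1 (-0.38), FHL1 (-0.55) and TUFT1 (-0.56). With SE, FHL1 (-1.13) and TUFT1 (-0.73) were lower besides. ANKRD1, one of the 7, had group means of 0.09 to 0.337 TPM with the treatments and 1.71 TPM in untreated cells. It passed the filter on low values only through the untreated libraries, which favours a lower call. CCN1, a matricellular protein, had 10.1 ± 0.978 TPM with AE, 10.1 ± 1.34 TPM with TE, 8.27 ± 0.367 TPM with SE and 10.4 ± 1.00 TPM with HTyr, against 62.8 ± 2.09 TPM in untreated cells (SD, n = 3 each), a log2 fold change of -2.64 (SE 0.08, adjusted p = 5.37e-11). THBS1, thrombospondin 1, had 3.48 ± 0.226 TPM with AE, 2.83 ± 0.144 TPM with TE, 5.03 ± 0.493 TPM with SE and 3.76 ± 0.026 TPM with HTyr, against 15.7 ± 1.80 TPM in untreated cells, at -1.94 (SE 0.08, adjusted p = 1.02e-09). AMOTL2, an angiomotin family protein of junctions, was lower as well, at -1.69 (SE 0.07, adjusted p = 1.01e-09). CCN1, THBS1 and AMOTL2 are also known targets of YAP and TEAD, and each was lower with all 4 treatments.

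The immediate early genes that SRF drives with ternary complex factors had 3 of 8 tested lower and 0 higher (median -0.42). Of all genes, 7.43% were lower and 10.4% higher in this mean of the treatments. NR4A1, an orphan nuclear receptor, had 6.62 ± 0.682 TPM with AE, 8.65 ± 1.39 TPM with TE, 7.73 ± 0.875 TPM with SE and 7.83 ± 2.05 TPM with HTyr, against 22.2 ± 0.502 TPM in untreated cells, at -1.49 (SE 0.13, adjusted p = 4.28e-07). EGR2 (-0.75, adjusted p = 0.000851) and FOSB (-0.86, adjusted p = 0.00182) were low in abundance and lower with all 4 treatments. EGR2 had group means of 0.687 to 0.803 TPM with the treatments and 1.59 TPM in untreated cells. Like ANKRD1, it passed the filter on low values only through the untreated libraries, which favours a lower call. With SE IER2 (-0.75) and JUNB (-0.89) were lower too, and with HTyr JUNB was (-0.65). In the mean of the treatments EGR1 (-0.08), FOS (0.17), MCL1 (-0.01), IER2 (-0.31) and JUNB (-0.53) were not called.

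Averaged over the treatments, focal adhesion genes had 3 of 15 lower and 1 higher (median -0.32), beside 7.43% and 10.4% of all genes. PXN (-0.66, adjusted p = 4.18e-08) and FERMT2 (-0.94, adjusted p = 2.57e-07), which encode paxillin and kindlin-2, were lower, and so was LPP. With single treatments, PXN was lower with AE (-0.68), TE (-0.62) and SE (-1.03) and had -0.30 with HTyr, where it was not called, and LPP was lower with AE (-0.80), SE (-1.02) and HTyr (-0.96) and not called with TE (-0.53). VASP (-0.74) and TES (-0.68) were called lower with SE only. FERMT2 was lower and FERMT1 higher with each of the 4. FERMT1, kindlin-1, was the higher one, with 16.9 ± 0.465 TPM with AE, 18.1 ± 1.68 TPM with TE, 18.5 ± 1.04 TPM with SE and 20.6 ± 1.82 TPM with HTyr, against 11.0 ± 0.761 TPM in untreated cells, at 0.73 (SE 0.07, adjusted p = 1.08e-06). FERMT2 had 15.3 ± 1.54 TPM with AE, 14.7 ± 1.72 TPM with TE, 16.6 ± 1.32 TPM with SE and 14.023 ± 0.766 TPM with HTyr, against 29.4 ± 0.425 TPM in untreated cells.

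The ARP2/3 complex, which nucleates branched filaments, and its activators had 0 of 16 lower and 1 higher averaged over the treatments (median 0.10), namely ARPC4 (0.64, adjusted p = 2.12e-06). For this list and the next, the shares of all genes in that mean were 7.43% lower and 10.4% higher. WASF2 (-0.49, adjusted p = 2.74e-07) and ARPC5L (0.43, adjusted p = 0.000163) did not pass the fold threshold. With single treatments, ARPC4 was called with AE (0.62) and SE (0.87), BRK1 was higher with SE (0.59) and WASF2 was lower with TE (-0.59). Of the other turnover and bundling genes 1 of 16, SVIL, was lower and 0 higher averaged over the treatments (median 0.01), and PFN2 (0.52, adjusted p = 1.81e-07), TMSB10 (-0.34, adjusted p = 6.04e-05) and GSN (-0.37, adjusted p = 0.00016) were not called. With SE alone 2 of the 16 were higher and 4 lower, beside 17% and 11% of all genes. PFN2 (0.93) and PLS3 (0.71) were the higher ones, and TMSB4X (-1.13), TMSB10 (-0.65), GSN (-0.68) and SVIL (-0.64) the lower. With TE only SVIL was called (-0.76), and with AE and HTyr none of the 16 was. Of all genes, 12.7% (TE), 16.6% (AE) and 16.2% (HTyr) were called in either direction. Genes named for their value with a single treatment were chosen after the values were seen.

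**Figure D5:**
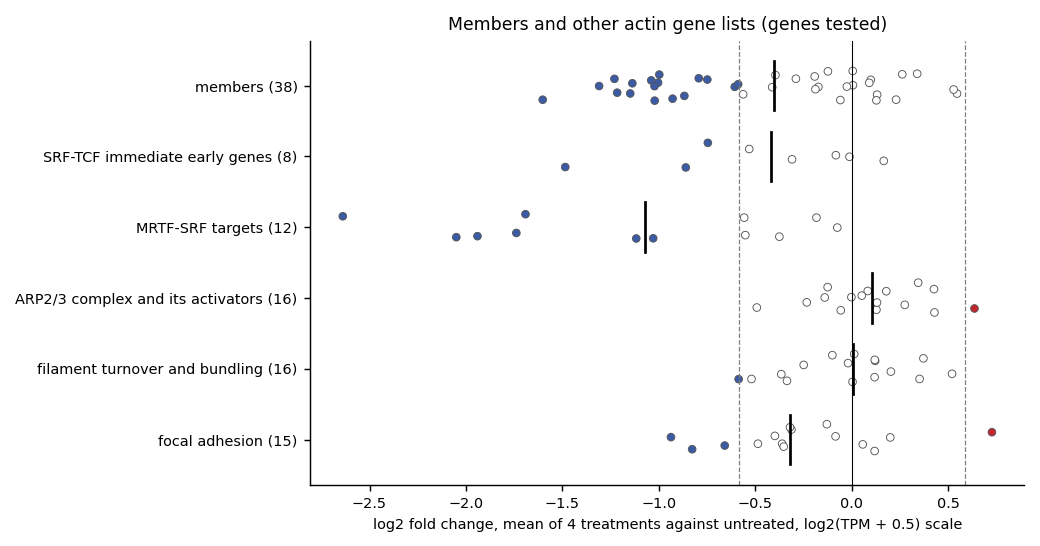
Log2 fold change in the mean of the 4 treatments against untreated cells for each tested gene (points) of the 38 members and of the 5 other lists (rows), with a bar at the median of each list, blue for lower, red for higher and open for not called. The other MRTF-SRF targets have the lowest median (-1.07), and the ARP2/3 list (0.10) and the turnover list (0.01) lie near 0.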

How the data were processed

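Libraries of poly(A) RNA were prepared with the TruSeq stranded kit, sequenced, aligned with STAR to GRCh38 and quantified with RSEM on Ensembl genes. The aligner, quantifier and build stand in the submitters' processing notes. Tool versions: not given in the sources used here. As deposited by the authors, each gene has 1 TPM value per library, made without scaling between libraries. TPM hold no depth, so counting error is unknown, and the authors' estimated counts and DESeq2 results were not used here. Identical values were found in 0 pairs of libraries.

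GENCODE 44 gave symbols for 60463 of 60664 genes and the coordinates. RefSeq gave the promoters. Values entered as log2(TPM + 0.5), a scale that understates changes of low genes. Filtering for 1 TPM or more in 3 or more libraries kept 14899 genes and left out 45765. A single limma 3.58.1 model (R 4.3.3) held all 5 group means, with a mean-variance trend, 10 residual and 3.42 prior degrees of freedom and Benjamini-Hochberg adjustment over all genes. Its p-values set a difference between groups against the spread between the libraries within groups, all of a single cell line. The code was tested on simulated data. The members and lists were chosen with earlier results of these data known.

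Values in every library are given for members called with all 4 treatments, for the 10 largest changes averaged over the treatments, for members called in SE against HTyr, and for ACTB, ACTG1, SRF, MRTFA and MRTFB. TPM3 and CFL1 were added after their values were seen. From each other list the 3 genes of smallest adjusted p and up to 2 that went against their list are named. LPP, SVIL, EGR1, FOS, MCL1, ANKRD1, ACTA2, TGFB1I1 and PDLIM1 were named outside that rule. So were listed genes that were not tested and genes named for their value with single treatments. Some genes and 1 list are not reported here. The alternatives were pseudocounts of 0.1 and 1, no filter or a mean of 5 TPM or more, median-ratio or quantile scaling, omission of mitochondrially encoded genes, of single libraries or of groups not compared, a replicate block, array weights, no trend, and fold thresholds of 0 and 1 (log2). Python 3.11.15, numpy 2.4.6, pandas 2.3.3 and matplotlib 3.10.9 were used for tables and figures.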

Additional observations from a re-analysis of the deposited data

How the results depend on the processing

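Of 10857 member values recomputed, 10794 kept their direction and side of the threshold, 24 lost the call, 39 gained it and 0 called values reversed. The fold threshold set the counts. At an absolute log2 fold change over 1, the members changed against untreated cells numbered 6 with AE (4.8% of all genes tested), 8 with TE (2.97%), 10 with SE (10.9%), 5 with HTyr (3.95%) and 10 in the mean of the 4 treatments (4.68%), and 0 in SE against HTyr (1.28%) and in SE against TE (1.75%). With no fold threshold they numbered 28 with AE (39.8% of all genes tested), 24 with TE (34%), 31 with SE (52%), 26 with HTyr (39.4%) and 31 in the mean (49.9%), 2 in AE against HTyr (9.12%), 1 in TE against HTyr (3.29%), 17 in SE against HTyr (28.1%), 15 in SE against AE (17.5%) and 15 in SE against TE (26.4%). Median-ratio scaling gave 3 in SE against HTyr and 3 in SE against TE, and quantile normalization 2 in SE against HTyr, 1 in SE against AE and 3 in SE against TE. Leaving out each library in turn gave 15 to 18 with AE, 15 to 18 with TE, 19 to 20 with SE, 17 to 18 with HTyr, 16 to 18 in the mean, 1 to 2 in SE against HTyr, 1 to 2 in SE against TE and 0 in the other pairs.

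Scaling also moved the split of all called genes in AE against HTyr (34 higher and 83 lower with median-ratio scaling, against 134 higher and 66 lower) and TE against HTyr (31 higher and 56 lower, against 66 higher and 39 lower), where 0 members were called either way. The replicate numbers showed no clear pairing of the samples. Deviations of libraries with the same number correlated at -0.209 to 0.263 (median 0.003, 30 pairs of libraries). With other numbers they correlated at -0.225 to 0.28 (median 0.014, 60 pairs), and 7 of 15 libraries lay closer to their own number. A weak pairing could go unseen in this check. With the replicate number as a block the members changed numbered 16 with AE, 16 with TE, 19 with SE, 18 with HTyr and 17 in the mean. TPM carry no depth, so which small differences depth limits is unknown.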

Other observations

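ACTB, whose protein served with alpha-tubulin as a loading control in the immunoblots of the study, had one of the larger falls among the members, with a limma log2 fold change averaged over the treatments of -1.31 (SE 0.05, adjusted p = 1.02e-09). The protein was not measured in these data.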
